A study of Mus musculus with 8 samples.

Results

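The genes described here are the mouse genes named as translation initiation or elongation factors. They were measured in cells with and without a knockdown of Zrf1 at day 6 of neural induction. The members were chosen by name: every gene probe on the array whose gene name began with Eif and a digit from 1 to 6, or with Eef and the digit 1 or 2. That gave 66 genes with 98 probes, of 36406 gene names and 55681 probes in all. The 4 genes named Eif2c on the array are the Argonautes, which act in silencing by small RNAs, and they are kept apart below. Of the 66 genes, 64 were tested: they had a probe that stood well above background on every array of the knockdown group, the control group or both. The genes Eef1a2 and Eif5b were not, nor was a further probe each of Eif2s3x and Eif4e1b. Of the 64 tested genes, 62 were above background on all 8 arrays.

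The 4 knockdown samples carried a short hairpin RNA against Zrf1 and the 4 control samples a control hairpin. All 8 came from mouse embryonic stem cells (ESC) taken to day 6 of a neural induction whose product the labels call neural progenitor cells (NPC) like radial glia. The stem cell line, how the hairpins were delivered and the number of clones are not stated in the sources at hand. Nothing in the labels says that the 4 samples of a group were separate cultures, so the p-values measure the spread between these samples, which may be technical. The file names of the knockdown arrays carry only 2 numbers, each on 2 arrays, and 1 array of each pair also bears the mark TR, whose meaning is not stated. Whether the 4 knockdown samples are 4 separate ones or 2 measured again was therefore not settled. Zrf1 now bears the symbol Dnajc2; its product is a chaperone with a J domain that sits on the ribosome and can also act on chromatin.

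Translation starts when eIF2, bound to GTP and the initiator tRNA, joins the small ribosomal subunit together with eIF1, eIF1A, eIF3 and eIF5, and when eIF4F brings in the capped mRNA. Elongation is then driven by eEF1, which delivers aminoacyl-tRNA, and eEF2, which moves the ribosome along. Kinases that phosphorylate eIF2 slow its recycling by eIF2B and lower initiation on most mRNAs, a switch known as the integrated stress response.

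Each array had 59305 gene spots, of which 53.4% to 60.3% were well above background and none was saturated. Levels are given as log2 of the signal over that array's 75th percentile, and a change is knockdown minus control on that scale. Levels of different probes are not compared. A gene counted as called at a Benjamini-Hochberg adjusted p under 0.05 in limma, adjusted over all 29076 tested probes, and it stands by its brightest tested probe. Dnajc2 itself averaged -2.15 ± 0.23 on the knockdown arrays and 2.07 ± 0.11 on the control arrays (SD, n = 4 each), 18.6-fold lower, with an adjusted p of 1.34e-07 and no overlap. Markers of cell types also differed between the groups. Of 8 neural progenitor markers 7 were called lower and none higher, Pax6 was not called, and Fabp7 was too dim to measure on all 4 knockdown arrays. The mean log2 signal over the 8 lay between 0.13 and 0.40 on the knockdown arrays and between 2.84 and 2.90 on the control arrays. All 6 endoderm markers were called higher, with a mean of 0.24 to 0.39 on the knockdown arrays and -2.60 to -2.51 on the control arrays, where Afp was too dim to measure on all 4 and Gata4 and Cubn on 1 each. The means take dim signals as they are. The rises were uneven: Foxa2 rose by 0.29 and Sox17, whose groups overlapped, by 0.52, while Gata4, Gata6 and Cubn rose by 2.82, 3.12 and 5.35. Over all tested probes 27.8% were called higher and 29.1% lower. All 4 neuron markers and 3 of 4 pluripotency markers were called lower. Of the mesoderm markers only Actc1 was tested, and it was higher, while T, Mixl1 and Hand1 were too dim to test. Of 3 tested fibroblast markers 2 were higher. The part that this shift in markers plays in the values below was not tested. In RNA from whole cultures, fewer cells of a type and less RNA per cell cannot be told apart.

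Most of the member genes that were called were lower after Zrf1 knockdown. The members were taken by name, so they include the eIF2 kinases, the eIF4E-binding proteins and Eef2k, which restrain translation. Of the 64 tested genes, 32 fell (50%), 9 rose (14.1%) and 23 did not pass the test. Over all tested probes 56.9% were called in either direction, 29.1% lower and 27.8% higher, so the members' share of lower calls stood above that of the whole array and their share of higher calls below it. The median change was -0.23 over the members, against 0.02 over all tested probes. The 2 groups did not overlap for 42 of the 64 genes, against 54.0% of all tested probes. The changes were mostly small: 20 of the 41 called genes moved by at most 0.5 on the log2 scale. A fall of at least 1 was called for 5 genes (Eif4e1b, Eif2c1, Eif4g2, Eif5 and Eif2ak2), against 8.09% of all tested probes. A rise of at least 1 was called for Eif4a2 and Eif2ak3 alone, against 10% of all tested probes. Without the Argonautes, 31 of 60 genes fell and 8 rose, with a median of -0.26.

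The arrays came from 3 glass slides, each holding both groups. Within the slides, 40 of the 41 called genes had 1 sign on all 3, the exception being Eif2ak2. The calls came from these same arrays, so this describes the values and is no second test of them. When arrays were scaled by their medians instead, the median change of all probes was -0.12 and 38% of all calls were higher, where the 75th percentile gave 48.9%. Under that scaling 34 member genes fell and 5 rose, and the members' median was -0.38. Quantile normalization went the other way, with 29 lower, 11 higher and a members' median of -0.15, against 0.01 over all probes. The authors' deposited values gave 30 lower, 11 higher and a members' median of -0.15.

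**Figure D1:**
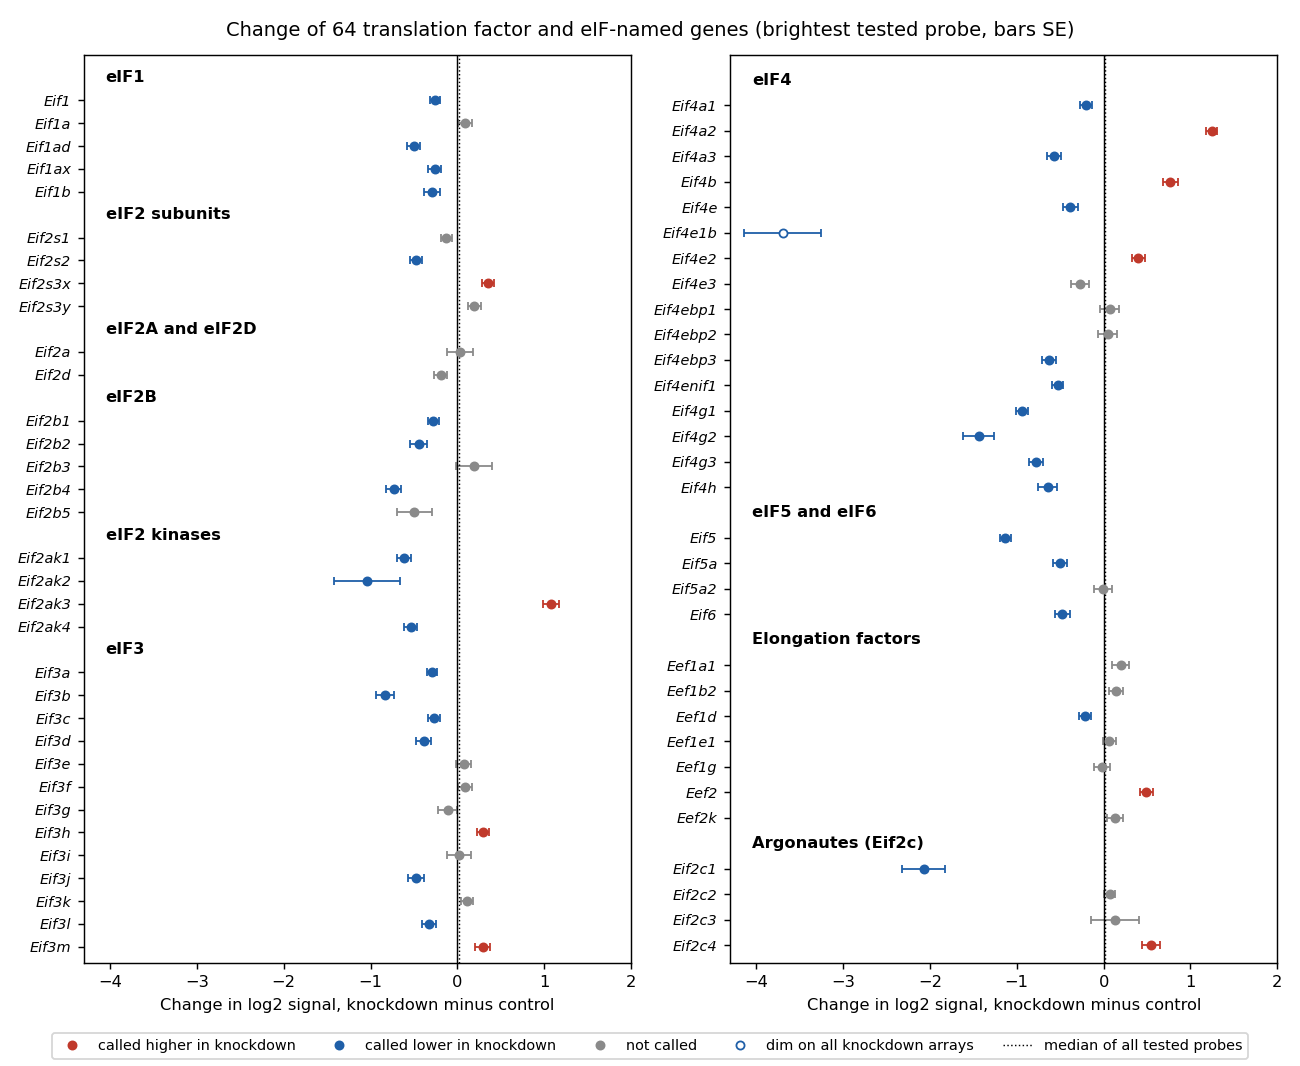
Change in log2 signal, knockdown minus control, of the 64 tested genes by group, for the brightest tested probe of each; bars are standard errors and the dotted line is the median of all tested probes. Genes lie on both sides of 0, with 32 called lower (blue) and 9 called higher (red), and Eif4e1b (open symbol) was too dim to measure on the knockdown arrays.

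**Figure D2:**
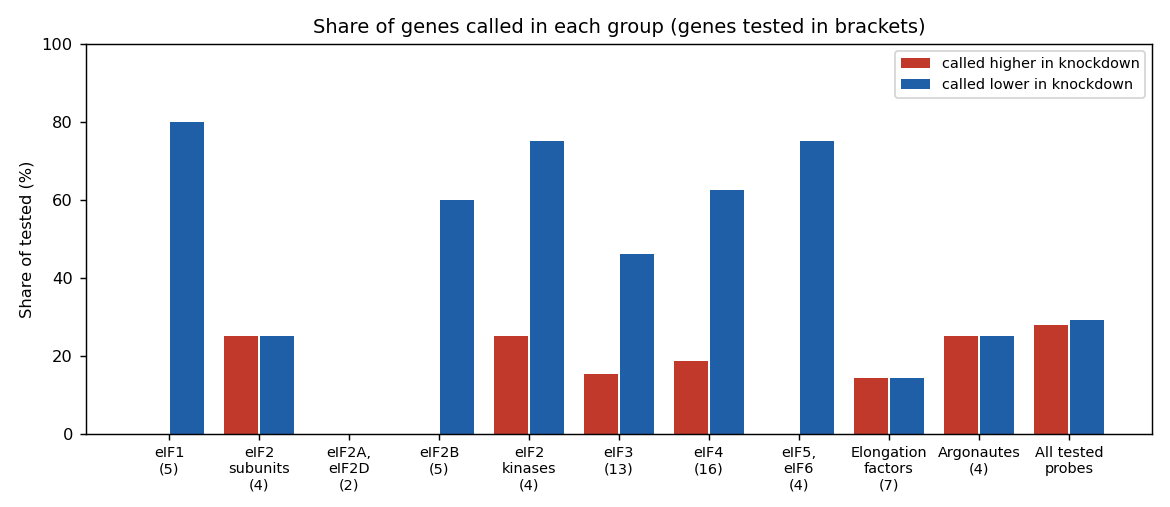
Share of tested genes called higher or lower in knockdown, in percent, for each group of factors, with all tested probes at the right (27.8% higher, 29.1% lower). The share called lower was 80.0% of eIF1 genes, 62.5% of eIF4 genes, 46.2% of eIF3 genes and 14.3% of elongation factors; groups hold 2 to 16 genes.

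The eIF4 genes moved in both directions. They encode the cap-binding complex eIF4F with its cofactors and inhibitors. Among 16 tested, the median change was -0.46, with 10 genes lower (62.5%) and 3 higher (18.8%). Over all tested probes 29.1% were lower and 27.8% higher. All 3 eIF4G scaffold genes fell, while the helicase gene Eif4a2 and the helicase cofactor gene Eif4b rose. The probes of these genes are shown because a paralogue is told from its relatives only by the bases it carries. They are printed as the files give them, with positions on mouse build mm9, and no base is singled out by capitals. The Eif4g1 probe lies at chr16:20692815-20692874, Eif4g2 at chr7:118216077-118216136, Eif4g3 at chr4:137762115-137762174, Eif4a1 at chr11:69480486-69480545 and Eif4a2 at chr16:23113939-23113998. Whether they lie in coding sequence or in a UTR was not analysed here.
Eif4g1: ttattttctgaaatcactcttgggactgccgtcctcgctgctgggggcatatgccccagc
Eif4g2: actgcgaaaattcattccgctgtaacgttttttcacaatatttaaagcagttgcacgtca
Eif4g3: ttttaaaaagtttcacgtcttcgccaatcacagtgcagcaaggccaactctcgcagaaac
Eif4a1: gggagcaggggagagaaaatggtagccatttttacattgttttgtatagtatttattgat
Eif4a2: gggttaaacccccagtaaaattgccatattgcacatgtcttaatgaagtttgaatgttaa

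Eif4g2 encodes DAP5, an eIF4G relative that lacks the binding site for eIF4E. Its log2 signals were 2.48, 2.99, 2.88 and 2.67 on the knockdown arrays, against 4.33, 4.34, 3.72 and 4.40 on the control arrays. No knockdown value reached a control value, although control replicate 3 stood below the other controls. The change was -1.44 (SE 0.18), 2.71-fold lower, with an adjusted p of 0.000187. Eif4g1, the main scaffold that joins eIF4E, eIF4A and eIF3, gave 5.04, 4.96, 5.0 and 5.05 on the knockdown arrays and 5.91, 6.02, 6.04 and 5.84 on the control arrays. The groups lay far apart for their spread, and the change was -0.94 (SE 0.07), 1.92-fold lower, with an adjusted p of 9.39e-06. Eif4g3, a second scaffold of the same kind, fell by 0.78 on the log2 scale by its brightest probe and by 0.54 by its other probe, with adjusted p-values of 7.27e-05 and 0.00283.

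The paralogues of the helicase eIF4A differed in direction. Eif4a2 gave 6.21, 6.11, 6.22 and 6.19 on the knockdown arrays and 4.87, 5.0, 4.99 and 4.89 on the control arrays. Every knockdown array was more than 1 unit above every control array. The change was 1.25 (SE 0.06), 2.37-fold higher, with an adjusted p of 1.63e-06, and a second Eif4a2 probe rose by 1.54 (adjusted p 3.91e-05). Eif4a1, the main eIF4F helicase of most cells, gave 7.45, 7.26, 7.40 and 7.34 on the knockdown arrays and 7.51, 7.51, 7.62 and 7.61 on the control arrays. The groups were close, and the fall of 0.20 (adjusted p 0.0372) lost its call under 13 of 20 alternatives, with an adjusted p of 0.0601 when the slide was a term. Eif4a3, which belongs to the exon junction complex rather than to eIF4F, fell by 0.57 (adjusted p 0.000388).

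Eif4b, whose product stimulates the helicase, gave 5.69, 5.47, 5.39 and 5.55 on the knockdown arrays and 4.80, 4.83, 4.77 and 4.64 on the control arrays. It rose by 0.77 (SE 0.08, adjusted p 9.19e-05), and its 2 other probes both rose by 0.55 (adjusted p 0.00391 and 0.0014). Eif4h, a related cofactor, fell by 0.64 (SE 0.11, adjusted p 0.00102), with 5.96 to 6.28 on the knockdown arrays and 6.64 to 6.99 on the control arrays.

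The cap-binding genes were mixed. Eif4e, the cap-binding subunit of eIF4F, fell by 0.38 by its brightest probe (adjusted p 0.00422), but its other probe gave a change of 0.08 (adjusted p 0.462), and the mean of both was not called (-0.15, adjusted p 0.0963). Eif4e2, which encodes the homologue 4EHP that binds the cap without eIF4G, rose by 0.40 (adjusted p 0.002). Its 2 other probes were not called, and under median scaling its change was 0.26 with an adjusted p of 0.0761. Eif4e1b, a relative of eIF4E known from oocytes, was well above background on all control arrays (-1.67, -1.74, -1.47 and -1.50 there) and on no knockdown array. It was at least 4.58-fold lower, from the control mean against, on each knockdown array, the higher of its own signal and the lowest signal that counted as well above background; its adjusted p in the fit, 0.000155, uses the dim signals as they are and is not a p for that bound. Eif4e3 was not called (-0.27, adjusted p 0.0503), but was called lower under several alternatives, such as the authors' deposited values (-0.28, adjusted p 0.0138).

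The eIF4E-binding proteins, which block eIF4F until mTOR phosphorylates them, did not move as a set. Eif4ebp1 gave 6.39, 6.15, 5.90 and 5.99 on the knockdown arrays and 5.98, 6.06, 6.09 and 6.01 on the control arrays, a change of 0.07 (SE 0.11, adjusted p 0.613). Eif4ebp2 had a change of 0.05 (SE 0.11, adjusted p 0.754). For both the groups overlapped, and the sign turned under median scaling (-0.07 and -0.09), where the median of all tested probes was -0.12. Eif4ebp3 gave 2.10, 2.17, 2.10 and 2.17 on the knockdown arrays and 2.88, 2.84, 2.58 and 2.76 on the control arrays. It fell by 0.63 (SE 0.08, adjusted p 0.000225) with no overlap. Eif4enif1, which carries eIF4E into the nucleus, fell by 0.53 (adjusted p 0.000124).

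**Figure D3:**
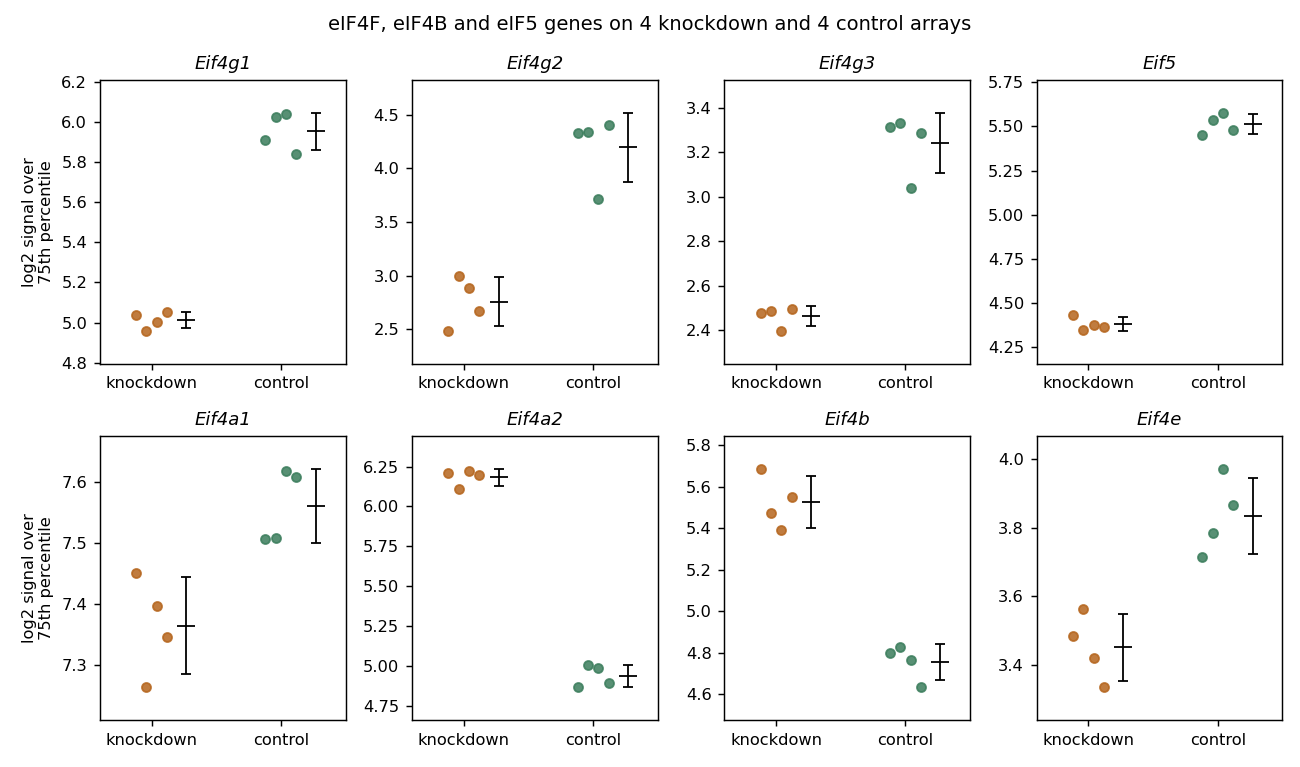
Log2 signal over the 75th percentile of each array for 8 genes of the eIF4 and eIF5 groups, with 1 point per array (4 knockdown at the left and 4 control at the right of each panel) and the mean ± SD beside them; each panel has its own axis. Eif4a2 and Eif4b were higher on every knockdown array, and the other 6 genes were lower on every knockdown array.

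The eIF2 cycle was covered by its subunits, its exchange factor and its kinases. Of the 4 subunit genes 1 rose and 1 fell, of 5 genes of the exchange factor eIF2B 3 fell, and of the 4 kinases 1 rose and 3 fell. These small counts stand beside 27.8% higher and 29.1% lower over all tested probes. Eif2s1, the alpha subunit that the kinases phosphorylate, gave 5.42, 5.29, 5.32 and 5.36 on the knockdown arrays and 5.42, 5.51, 5.49 and 5.48 on the control arrays. The groups met at 5.42, and the change of -0.13 (SE 0.06) was not called (adjusted p 0.108). Its probe shares 47 bases in a row with a probe of another name, so its signal may not be its own. Eif2s2, the beta subunit, fell by 0.47 (adjusted p 0.000469), with 5.79 to 5.94 on the knockdown arrays and 6.29 to 6.44 on the control arrays. That probe shares 55 bases with a probe named Gm9892, and the other Eif2s2 probe gave -0.07 (adjusted p 0.444). The gamma subunit is encoded on both sex chromosomes. Its X copy Eif2s3x rose by 0.36 (adjusted p 0.00219), with 3.47 to 3.62 on the knockdown arrays and 3.1 to 3.26 on the control arrays, but a further probe gave 0.05 (adjusted p 0.75) and under median scaling the change was 0.21 with an adjusted p of 0.161. Its Y copy Eif2s3y had a change of 0.19 (SE 0.07, adjusted p 0.0543), and under quantile normalization 0.35 with an adjusted p of 0.00162. The GTP-independent factors Eif2a and Eif2d were not called (0.03 and -0.19). Eif2d was called lower under some alternatives, such as median scaling (-0.33, adjusted p 0.0397).

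The exchange factor eIF2B reloads eIF2 with GTP. Of its 5 subunit genes, 3 fell (60%, against 29.1% of all tested probes) and none rose, with a median change of -0.45. Eif2b4, the delta subunit, gave 4.20, 4.00, 3.88 and 3.95 on the knockdown arrays and 4.62, 4.75, 4.84 and 4.74 on the control arrays. It fell by 0.73 (SE 0.09), 1.66-fold, with an adjusted p of 0.000156 and no overlap. Eif2b2 fell by 0.45 (adjusted p 0.005) and Eif2b1 by 0.28 (adjusted p 0.00659), although the change of Eif2b1 was -0.13 under quantile normalization (adjusted p 0.167). Eif2b5, the catalytic subunit, had a change of -0.49 (SE 0.21, adjusted p 0.0719). Without control replicate 3, its lowest control, the change was -0.67 with an adjusted p of 0.00816. Eif2b3 was not called (0.19, adjusted p 0.473).

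All 4 eIF2 kinase genes were called, against 56.9% of all tested probes, and only Eif2ak3 rose. Its product is PERK, the kinase that senses unfolded protein in the endoplasmic reticulum. Its probe, shown because this was the single kinase that rose, lies at chr6:70855152-70855211 on mm9.
Eif2ak3: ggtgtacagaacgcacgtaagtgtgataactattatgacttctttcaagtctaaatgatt
The log2 signals of Eif2ak3 were 1.33, 1.22, 1.24 and 1.15 on the knockdown arrays, against 0.06, 0.02, 0.37 and 0.17 on the control arrays. The groups were well apart. The change was 1.08 (SE 0.09), 2.12-fold higher, with an adjusted p of 2.09e-05, and it was 1.31, 0.96 and 1.10 within the 3 slides.

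Eif2ak4, the kinase GCN2 that senses uncharged tRNA, gave 1.90, 1.83, 1.86 and 1.84 on the knockdown arrays and 2.33, 2.49, 2.49 and 2.28 on the control arrays. It fell by 0.54 (SE 0.07, adjusted p 0.000293). Eif2ak1, the heme-regulated kinase HRI, gave -0.42, -0.47, -0.38 and -0.29 on the knockdown arrays and 0.34, 0.33, 0.11 and 0.13 on the control arrays. It fell by 0.61 (SE 0.08, adjusted p 0.0003), and neither gene showed overlap. Eif2ak2, the kinase PKR that binds double-stranded RNA, had 1 control array apart from the others. It gave -1.88, -2.01, -1.76 and -2.0 on the knockdown arrays, and -2.16, -0.39, -0.46 and -0.49 on the control arrays. Control replicate 1 lay below every knockdown array, so the groups overlapped. The change was -1.04 (SE 0.38) with an adjusted p of 0.0436. Without control replicate 1 it was -1.47 with an adjusted p of 1.49e-05, and without any one of the other 7 arrays the adjusted p lay between 0.0698 and 0.105. Slides 1 and 2 gave changes of -1.49 and -1.42, and slide 3, which held control replicate 1, gave 0.15.

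**Figure D4:**
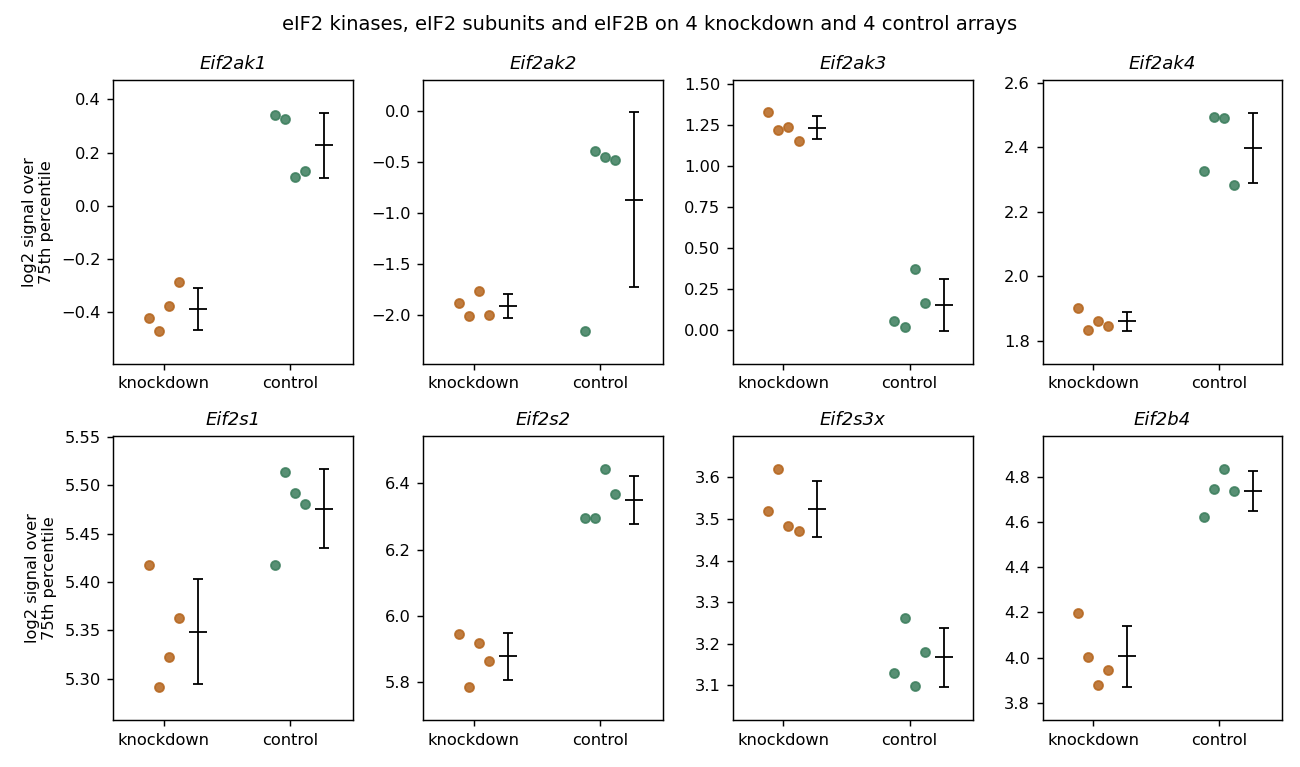
Log2 signal over the 75th percentile of each array for the 4 eIF2 kinases, 3 eIF2 subunits and the eIF2B subunit Eif2b4, with 1 point per array (4 knockdown at the left and 4 control at the right of each panel) and the mean ± SD beside them; each panel has its own axis. Eif2ak3 and Eif2s3x were higher on all knockdown arrays, and a single control array of Eif2ak2, at -2.16, lay below all of its knockdown arrays.

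Genes of the eIF1, eIF5 and eIF6 groups fell where they were called, and Eif5b was not tested. Eif5, which makes eIF2 hydrolyse its GTP at the start codon, fell by both probes. They are shown because they lie in different stretches of the transcript, at chr12:112784725-112784784 and chr12:112778375-112778434 on mm9, and gave nearly the same change.
Eif5 brightest probe: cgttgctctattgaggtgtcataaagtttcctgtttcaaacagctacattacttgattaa
Eif5 other probe: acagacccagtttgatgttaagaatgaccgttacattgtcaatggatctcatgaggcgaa
The brightest probe gave 4.43, 4.35, 4.38 and 4.36 on the knockdown arrays, against 5.45, 5.54, 5.58 and 5.48 on the control arrays. Replicates differed by little beside the gap between groups, and the change was -1.13 (SE 0.06), 2.19-fold lower, with an adjusted p of 1.89e-06. The other probe gave -1.0 (SE 0.10, adjusted p 4.09e-05).

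Eif5a, whose hypusine-bearing product helps ribosomes through difficult stretches and at termination, fell by 0.50 (adjusted p 0.000722). Its relative Eif5a2 was not called, with a change of -0.0048 and an adjusted p of 0.974. Eif6, which keeps the large ribosomal subunit from joining too early, fell by 0.47 and 0.48 by its 2 brighter probes (adjusted p 0.00162 and 0.00241), while a further, dim probe was not called (0.02). Of 5 eIF1 and eIF1A genes, 4 fell (80%, against 29.1% of all tested probes) and none rose, with a median change of -0.26. Eif1ad, an eIF1A-like gene, fell by 0.50 by its brightest probe (adjusted p 0.00047) and by 1.01 by its other probe (adjusted p 9.39e-06). Eif1, Eif1ax and Eif1b fell by 0.26, 0.26 and 0.29 (adjusted p 0.00638, 0.0197 and 0.0268), and Eif1a was not called (0.09). Eif1ax lost its call under 9 of 20 alternatives and Eif1b under 11, among them quantile normalization (adjusted p 0.11 and 0.243) and the averaging of knockdown pairs (adjusted p 0.077 and 0.0691).

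The 13 genes of eIF3, the large scaffold that holds the initiation complex on the small subunit, did not move together. Of these, 6 fell (Eif3a, Eif3b, Eif3c, Eif3d, Eif3j and Eif3l), 2 rose (Eif3h and Eif3m) and 5 were not called, with a median change of -0.11. The share called was 61.5%, close to the 56.9% of all tested probes. Eif3b, part of the core of eIF3, gave 3.58, 3.46, 3.78 and 3.83 on the knockdown arrays and 4.49, 4.65, 4.45 and 4.40 on the control arrays. It fell by 0.83 (SE 0.10), 1.78-fold, with an adjusted p of 0.000171, while the 5 other falls lay between -0.48 and -0.27. Eif3h gave 8.42, 8.21, 8.26 and 8.32 on the knockdown arrays and 7.94, 8.08, 8.01 and 7.99 on the control arrays. It rose by 0.30 (adjusted p 0.00687), and its other probe by 0.39 (adjusted p 0.00471). The brightest Eif3h probe shares 35 bases in a row with a probe of another name. Both probes of Eif3m rose as well, by 0.29 and 0.30. Eif3m lost its call under 8 of 20 alternatives. Among the falls, Eif3a lost its call under 4, with an adjusted p of 0.0963 under quantile normalization, and Eif3c under 3. Eif3j and Eif3l lost theirs under 1 each. Under median scaling neither Eif3h (0.16, adjusted p 0.337) nor Eif3m (0.15, adjusted p 0.394) was called.

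Eif3j, now Eif3j1, a loosely bound subunit, was the single gene among 24 with several tested probes whose probes were called in opposite directions. For 16 of the 24, all probes had the same call, and for 7 some were called and others not. The 3 Eif3j probes are shown because the call depends on which is read. They lie in order along the chromosome at chr2:121866905-121867335 (60 bases over a gap), chr2:121879180-121879239 and chr2:121882015-121882074 on mm9.
Eif3j upstream probe: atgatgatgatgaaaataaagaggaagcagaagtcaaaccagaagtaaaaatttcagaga
Eif3j middle probe: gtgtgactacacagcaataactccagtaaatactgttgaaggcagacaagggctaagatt
Eif3j downstream probe: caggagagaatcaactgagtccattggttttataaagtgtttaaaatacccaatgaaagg
The middle probe, the brightest, gave 2.49, 2.45, 2.29 and 2.33 on the knockdown arrays and 2.76, 2.81, 3.07 and 2.84 on the control arrays, a fall of 0.48 (adjusted p 0.00202). The downstream probe gave 0.30, 0.48, 0.51 and 0.22 on the knockdown arrays and -0.20, -0.16, 0.21 and 0.08 on the control arrays, a rise of 0.40 (adjusted p 0.0182). The upstream probe was high on slide 2 whatever the group: it gave 1.54 and 1.43 on the knockdown arrays and 2.18 and 1.87 on the control arrays of that slide, against 0.10 and -0.34 on the knockdown arrays and -0.33 and -0.52 on the control arrays of slides 1 and 3. Its change of -0.12 (SE 0.74) was not called, with an adjusted p of 0.911. The mean of the 3 probes was not called either (-0.07, adjusted p 0.871). A dimmer probe of Eef1a1 followed the slides in the same way, with 7.23 and 7.29 on the knockdown arrays and 7.10 and 7.09 on the control arrays of slide 2, and 6.23 and 6.12 on the knockdown arrays and 5.90 and 5.96 on the control arrays of the other 2 slides. The cause was not tested.

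**Figure D5:**
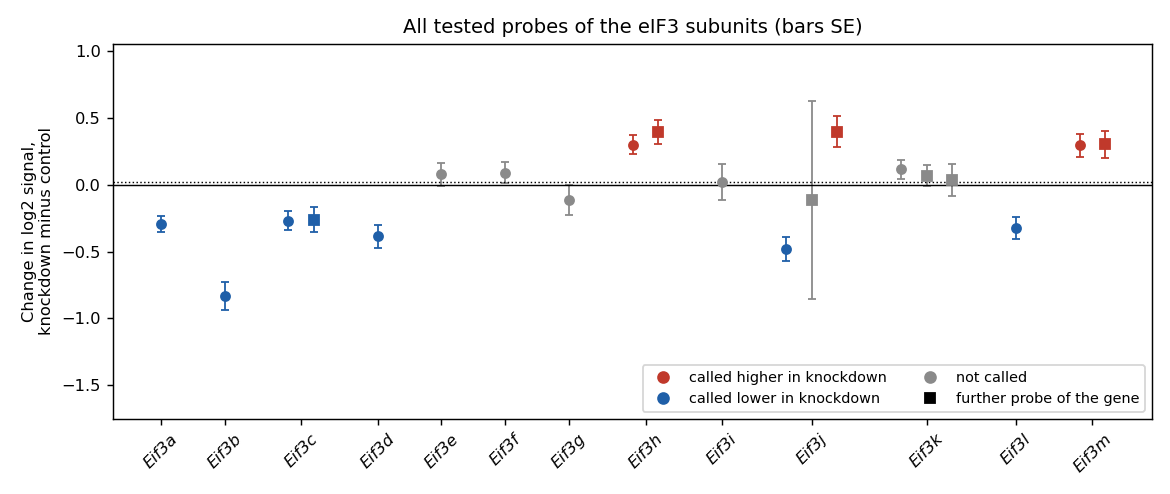
Change in log2 signal, knockdown minus control, for every tested probe of the 13 eIF3 subunit genes; circles are the brightest probe of a gene, squares its further probes, bars are standard errors and the dotted line is the median of all tested probes. Eif3b had the largest fall (-0.83), Eif3h and Eif3m rose by both probes, and the 3 probes of Eif3j lay at -0.48, -0.12 and 0.40.

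Of 7 tested elongation factor genes, 1 rose, 1 fell and 5 were not called. The share called was 28.6%, against 56.9% of all tested probes. Their median change was 0.13, and -0.01 under median scaling, against 0.02 and -0.12 over all tested probes. Eef2, the translocase, gave 8.41, 8.30, 8.44 and 8.52 on the knockdown arrays and 7.89, 8.02, 7.92 and 7.88 on the control arrays. It rose by 0.49 (SE 0.07), 1.41-fold, with an adjusted p of 0.000476 and no overlap. Its inhibitory kinase Eef2k was not called by either probe (0.13 and -0.27). Eef1a1, the carrier of aminoacyl-tRNA, had a change of 0.20 (SE 0.09, adjusted p 0.113) with overlapping groups. Its brightest probe shares up to 33 bases with probes of other names. The exchange factor genes Eef1b2 and Eef1g were not called (0.14 and -0.02), nor was Eef1e1 (0.07). With the authors' deposited values Eef1g was called lower (-0.19, adjusted p 0.0369), and 2 elongation factor genes were lower there. The brightest Eef1g probe shares 39 bases with a probe of another name. Eef1d, a further exchange subunit, fell by 0.21 (adjusted p 0.0308), a call lost under 10 alternatives, 6 of which left out 1 array (adjusted p 0.0565 to 0.0825). Whether elongation and initiation factors differ in how often they changed was not tested.

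The Argonautes, which share only the older Eif2c name with the factors above, held the largest change among the 62 genes above background on all 8 arrays. Eif2c1, now Ago1, gave -3.28, -2.50, -2.23 and -2.93 on the knockdown arrays and -0.83, -0.95, -0.62 and -0.26 on the control arrays. The groups did not overlap. It fell by 2.07 (SE 0.25), 4.21-fold, with an adjusted p of 0.000144. A second probe fell by 2.39 (adjusted p 0.000767) but was well above background on only 1 knockdown array. Eif2c4 rose by 0.54 by its brightest probe (adjusted p 0.00217), while its other probe was not called (-0.44, adjusted p 0.179) and their mean was 0.05. Eif2c2, whose product Ago2 is the slicing Argonaute, was not called by its brightest probe (0.07, adjusted p 0.387) and rose by 0.55 by its other probe (adjusted p 0.000261). Eif2c3 was not called (0.13).

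Genes around eIF2 phosphorylation included large rises. Of 18 tested genes of the integrated stress response, a list drawn up with earlier results of these data known, 11 rose, 3 fell and 4 were not called, with a median change of 0.49. Over all tested probes 27.8% were higher and 29.1% lower, with a median of 0.02. Ddit3, the stress factor CHOP, averaged 4.80 ± 0.07 on the knockdown arrays and -0.59 ± 0.10 on the control arrays (SD, n = 4 each), a change of 5.40 with an adjusted p of 2.13e-08. Atf4, whose mRNA is translated when eIF2 is phosphorylated, averaged 7.49 ± 0.11 on the knockdown arrays and 7.0 ± 0.16 on the control arrays, a rise of 0.49 (adjusted p 0.00284). Ppp1r15a (GADD34), which brings the phosphatase to eIF2, rose by 0.65 (adjusted p 0.000123), while its constitutive relative Ppp1r15b had a change of 0.23 (adjusted p 0.0667). Atf3 rose by 3.13 (adjusted p 4.1e-07). The 3 that fell were Sesn2 (-0.46), Impact, which encodes an inhibitor of GCN2 activation (-0.35), and Asns, asparagine synthetase (-0.20). These arrays measured mRNA, and the phosphorylation of eIF2 was not measured.

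The other lists near the factors were mixed, and are to be read beside the same 27.8% higher and 29.1% lower over all tested probes. Among 16 regulators of mTOR and eIF4E, 5 rose and 5 fell, with a median change of -0.17. Mknk2, a kinase of eIF4E, rose by 1.17 (adjusted p 1.31e-05) and Pdcd4 by 1.18 (adjusted p 0.000296). Tsc1, which restrains mTOR, rose by 0.56. Mtor itself fell by 0.69 (adjusted p 6.14e-05) and Akt1s1 by 0.94 (adjusted p 8.93e-05). Of 9 enzymes that make hypusine on eIF5A or diphthamide on eEF2, 6 fell and 1 rose, and Dph3 of the diphthamide pathway fell by 1.86 (adjusted p 1.09e-06). Of 17 genes for termination, recycling and poly(A) binding, 7 fell and 2 rose, with a median of -0.03. The release factor GTPase Gspt2 fell by 1.01 (adjusted p 6.55e-06) and Pabpc4, a poly(A)-binding protein, rose by 0.51 (adjusted p 0.000957). Of 10 mitochondrial translation factors, 4 fell and 3 rose, with a median of -0.31. Mrrf fell by 0.93 (adjusted p 0.000717), and Mtif2, the initiation factor, rose by 0.65 (adjusted p 0.000992).

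Promoter windows of 300 bases, most of them before the annotated start, were matched for 50 of the 64 tested genes in the RefSeq table on build GRCm38.p6. The E-box CACGTG, which reads the same on both strands, stood in a window of 12 of the 50 genes (24.0%), against 8.09% of all genes in the table. That share covers 27025 genes, tested here or not, and no share among tested genes was taken. A gene with several windows counted if any of them held the motif. The E-box was in 1 of 8 genes that rose, 7 of 27 that fell and 4 of 15 that were not called. The letters TGATGNAAN, a form of the element that ATF4 and CHOP are known to bind, were searched on both strands and stood in 2 of the 50 (4.0%), against 4.5% of all genes. Such a match is a description and not a binding site. The windows of Eif4g1 (chr16:20672477-20672776), Eif4e (chr3:138527018-138527317) and Eef2 (chr10:81176381-81176680), all on the plus strand, show the motif, in capitals, in genes that fell and in the gene that rose.
Eif4g1: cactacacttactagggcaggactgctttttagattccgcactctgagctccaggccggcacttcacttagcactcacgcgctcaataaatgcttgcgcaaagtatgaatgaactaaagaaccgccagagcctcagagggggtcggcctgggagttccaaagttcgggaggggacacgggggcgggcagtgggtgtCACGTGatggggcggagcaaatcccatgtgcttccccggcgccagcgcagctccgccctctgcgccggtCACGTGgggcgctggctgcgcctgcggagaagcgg
Eif4e: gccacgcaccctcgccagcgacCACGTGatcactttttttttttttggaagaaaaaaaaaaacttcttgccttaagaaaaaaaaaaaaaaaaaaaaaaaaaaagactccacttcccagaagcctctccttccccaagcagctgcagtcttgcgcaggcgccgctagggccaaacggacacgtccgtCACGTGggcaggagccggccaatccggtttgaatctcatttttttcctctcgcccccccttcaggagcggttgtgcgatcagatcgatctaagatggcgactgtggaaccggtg
Eef2: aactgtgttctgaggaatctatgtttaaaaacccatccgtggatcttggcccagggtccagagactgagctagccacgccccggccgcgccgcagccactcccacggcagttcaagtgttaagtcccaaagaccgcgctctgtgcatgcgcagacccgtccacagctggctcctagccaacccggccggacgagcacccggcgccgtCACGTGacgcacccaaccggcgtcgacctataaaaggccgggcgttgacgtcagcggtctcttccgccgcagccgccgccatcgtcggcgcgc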

How the data were processed

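Polyadenylated RNA from 100 ng of total RNA per sample was primed with oligo-dT, amplified and labelled with Cy3, per the labels' protocols, and hybridised to 8 single-colour arrays of design 028005 with probes of 60 bases. The deposited intensity values were extracted with Agilent Feature Extraction 10.7.3.1, which corrected them for background within each array, per the file headers. The authors' deposited table of log2 values was used as an alternative only, since its steps are not stated in the sources at hand. It correlated at 0.99999 with normexp (offset 50) and quantile normalization.

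The processed intensities of a probe's spots were averaged without outlier spots, logged to base 2 and set relative to the array's own 75th percentile. The 75th percentiles lay between 428 and 618 intensity units. The 29076 probes that stood above background throughout the knockdown group, the control group or both were tested with limma 3.58.1 in R 4.3.3, two-sided, with Benjamini-Hochberg adjustment. The number of arrays limits the precision. The fit was tested on simulated data with independent arrays and the spread of the controls in both groups. That test held no slide effects and no paired knockdown arrays, so it does not bear on either. Probe positions are on mm9. All 64 tested genes had their probe on the gene's RefSeq chromosome.

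The members and lists were chosen with earlier results of these data known. The naming rule took the eIF2 subunits and kinases, the Eif4ebp genes, members called with a change of at least 1, the largest called rise and fall of each group, genes whose probes were called in opposite directions and up to 2 called rises and falls of each list by smallest p, with Atf4, Ddit3, Ppp1r15a and Ppp1r15b whatever their p. It named 24 members, and all others, the motifs and the sequences shown were chosen after their values were seen.

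The file names of the knockdown arrays carry only the numbers 2 and 3, each on 2 arrays, so averaging those pairs was an alternative. Other alternatives changed the scaling, the filter, the probe rule and the blocks, or left out an array.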

Additional observations from a re-analysis of the deposited data

Results flagged for a closer look

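In all, 7 values among 128 groups of 4 arrays stood apart from the other 3 arrays of their group, where chance would give about 1 in 20 groups. The number beside each is the gap to the nearest array as a share of the group's range. Control replicate 3 was highest for Eif1ad (0.898) and lowest for Eif3e (0.876), Eif4g2 (0.896) and Eif4g3 (0.842). Knockdown replicate 3 was lowest for Eif4g3 (0.844). Knockdown replicate 1 was highest for Eif2c3 (0.837). Control replicate 1 was lowest for Eif2ak2 (0.948).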

How the results depend on the processing

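Leaving out each array in turn gave 8 to 10 member genes higher and 27 to 31 lower, against 9 and 32 with all arrays, and 15429 to 16450 probes called over the array, against 16530. The count of higher genes was 5 under median scaling and 5 within slide 2 alone, where 22 were lower; it was 8 to 11 under the other alternatives with a test, where 26 to 34 were lower. The change of Eif2ak2 turned to 0.15 within slide 3, the slide with control replicate 1. Of the 41 called genes, 23 kept the call under all 20 alternatives with a test and 18 lost it under at least 1. Some genes not called in the main fit gained a call under an alternative, among them Eif4e3, Eif2d and Eef1g. The cause of these shifts was not tested. Same-numbered samples did not deviate together (correlations of 0.11, -0.12, 0.11 and -0.19), and with the replicate number as a block 8 members were higher, 27 lower and 14937 probes called. With the knockdown pairs averaged the counts were 8, 27 and 14150. Slides 1 and 3 held 1 array a group and gave values with no test. The change of Eif4e1b was -1.56 with normexp and quantile normalization, against -3.70, and its signals on the knockdown arrays were under the background limit in any case. The sensitivity and outlier checks were widened to all 64 tested genes after first results were seen. The fit was run over probes, and with 1 probe per gene 10 members were higher and 34 lower.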
